A study of Arabidopsis thaliana with 12 samples.

Results

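Phosphoribulokinase (PRK, AT1G32060, chromosome 1) and sedoheptulose-bisphosphatase (SBPASE, AT3G55800, chromosome 3) are enzymes of the Calvin cycle, the chloroplast pathway that fixes carbon dioxide. Each was read from the array's own probe for that gene, chosen because the platform annotation gives the probe 1 gene. They are 2 of the 692 genes with a probe of their own among 3439 probes, and the only 2 of 25 listed Calvin cycle genes with such a probe. Total RNA was measured in 6 samples of the Arabidopsis thaliana mutant pete1 and 6 of the wild type (WT). Both genotypes were of ecotype Columbia 0 and were raised on MS medium, the usual mineral medium for plant culture. In pete1 an isoform of plastocyanin is missing and the other remains; plastocyanin is the copper protein of the thylakoid lumen through which electrons reach photosystem I. Samples carry numbers 1 to 6 in either genotype, and no label names a tissue, an age, a mutant allele or a number of plants. The p-values are therefore about the spread of these samples alone, part or all of which may be technical.

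In the Calvin cycle, Rubisco joins carbon dioxide to ribulose bisphosphate, and most of the carbon that follows is spent on rebuilding that acceptor. SBPASE removes a phosphate from sedoheptulose bisphosphate, a step that commits carbon to regeneration, and PRK adds the last phosphate to make ribulose bisphosphate. Both enzymes are inactive in the dark and are switched on in the light by thioredoxins, which receive electrons that have passed through plastocyanin and photosystem I to ferredoxin. The arrays measure transcripts and not this switching of the proteins.

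The deposited values are scaled intensities, 1 per probe and sample, in units with no stated meaning. The sample medians over all probes were 0.279 to 0.331 in pete1 and 0.485 to 0.627 in WT, while the sample means were 0.917 to 1.01 in pete1 and 1.05 to 1.07 in WT. Over all probes the median log2 fold change, pete1 over WT, was -0.73 in the intensities as deposited and -0.0073 after quantile normalisation, the scale of the main test. PETE1 had no probe of its own in the annotation, so its absence from pete1 could not be checked here. None of 16 listed root, seed and flower marker genes had such a probe either, so the tissue was not checked. In RNA from whole samples, fewer cells of a type and less RNA per cell cannot be told apart.

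The PRK transcript was more abundant in the pete1 samples than in the WT samples. Its deposited intensity had a lowest value of 0.833, a median of 1.11 and a highest of 1.48 in pete1, and a lowest of 0.431, a median of 0.522 and a highest of 0.737 in WT. Every pete1 sample lay above every WT sample, which was so for 1.6% of all 3439 probes. The mean was 1.14 ± 0.273 in pete1 and 0.565 ± 0.119 in WT (SD, n = 6 each). After quantile normalisation the mean log2 level was 0.34 ± 0.32 in pete1 and -1.24 ± 0.46 in WT, and the groups again did not overlap, as for 6.48% of all probes. On that scale pete1 exceeded WT by 1.58 ± 0.22 (log2 fold change, SE), with a 95% interval of 1.09 to 2.07 (limma adjusted p = 0.000977). In that fit 10.7% of all probes passed as higher in pete1.

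For the SBPASE transcript no difference between the genotypes was called. Its deposited intensity had a lowest value of 0.273, a median of 0.717 and a highest of 1.13 in pete1, and a lowest of 0.661, a median of 0.967 and a highest of 1.37 in WT. The groups overlapped, and the mean was 0.703 ± 0.354 in pete1 and 0.991 ± 0.313 in WT (SD, n = 6 each). After quantile normalisation the log2 fold change was -0.088 ± 0.34 (SE), with a 95% interval of -0.83 to 0.66 (limma adjusted p = 0.895). No difference was therefore detectable at this precision, and the interval leaves room for a change in either direction. In that fit 21.7% of all probes passed in either direction.

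**Figure D1:**
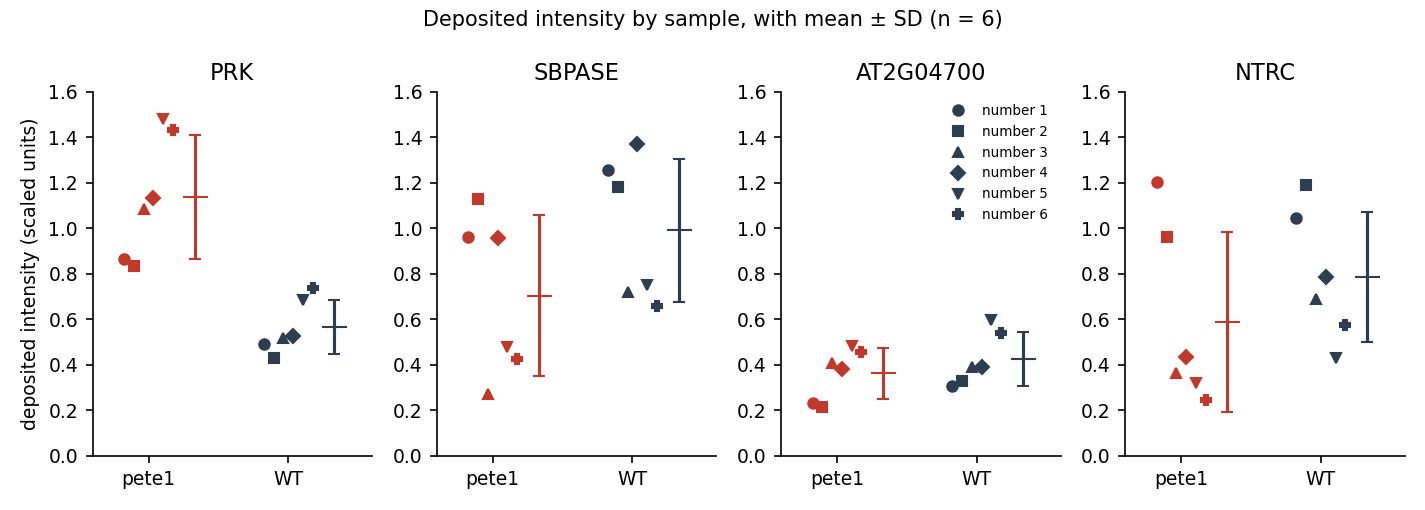
Deposited intensity in scaled units (vertical axis) of PRK, SBPASE and the redox genes AT2G04700 and NTRC in 6 pete1 and 6 WT samples; each point is a sample, its shape gives the sample number, and the bar to the right is the mean ± SD. For PRK the pete1 samples lie between 0.833 and 1.48, all above the WT samples at 0.431 to 0.737, and for the other 3 genes the genotypes overlap.

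The scaling set the size of both differences but not the order of the pair. As deposited, PRK had 1.0 ± 0.18 (log2 fold change ± SE, limma adjusted p = 0.00111), in a fit where 3.34% of all probes passed as higher and 50.8% as lower in pete1. SBPASE had -0.61 ± 0.37 there (limma adjusted p = 0.185), close to the -0.73 of the median probe. PRK stood well above the bulk of the probes, with 105 of 3439 above it as deposited and 152 after quantile normalisation. SBPASE stood near the middle, with 56.7% of probes below it as deposited and 45.0% after quantile normalisation. Median centring gave 1.81 ± 0.19 for PRK (limma adjusted p = 6.54e-05, with 19.3% of all probes called higher) and 0.20 ± 0.38 for SBPASE (limma adjusted p = 0.712), so the sign of the SBPASE estimate turned with the scaling.

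**Figure D2:**
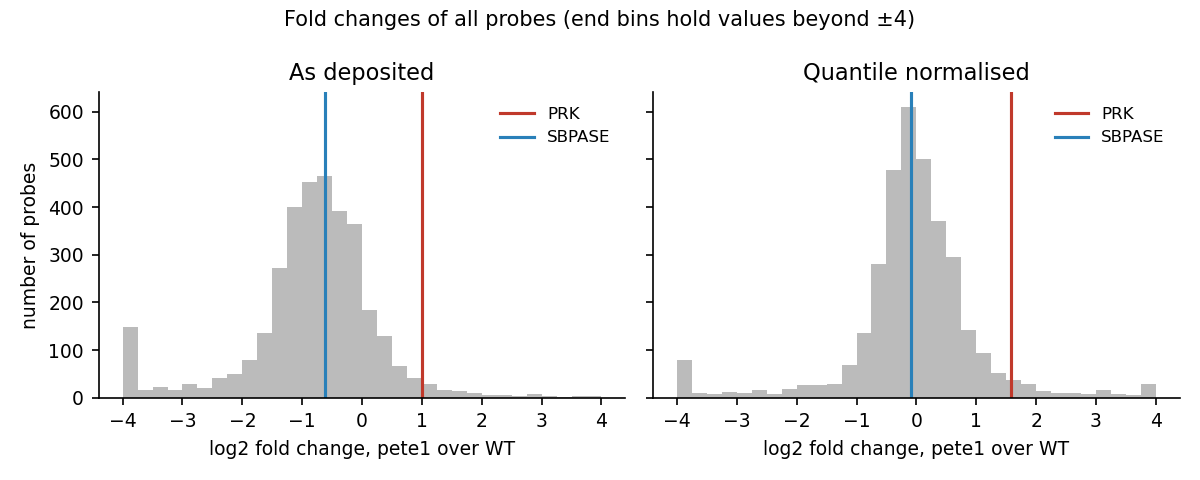
Histograms of the log2 fold change, pete1 over WT, of all 3439 probes (vertical axis, number of probes per bin), as deposited on the left and after quantile normalisation on the right, with lines at PRK and SBPASE. PRK lies in the upper tail of both, at 1.0 and 1.58, and SBPASE lies near the peak of both, at -0.61 and -0.088.

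**Figure D3:**
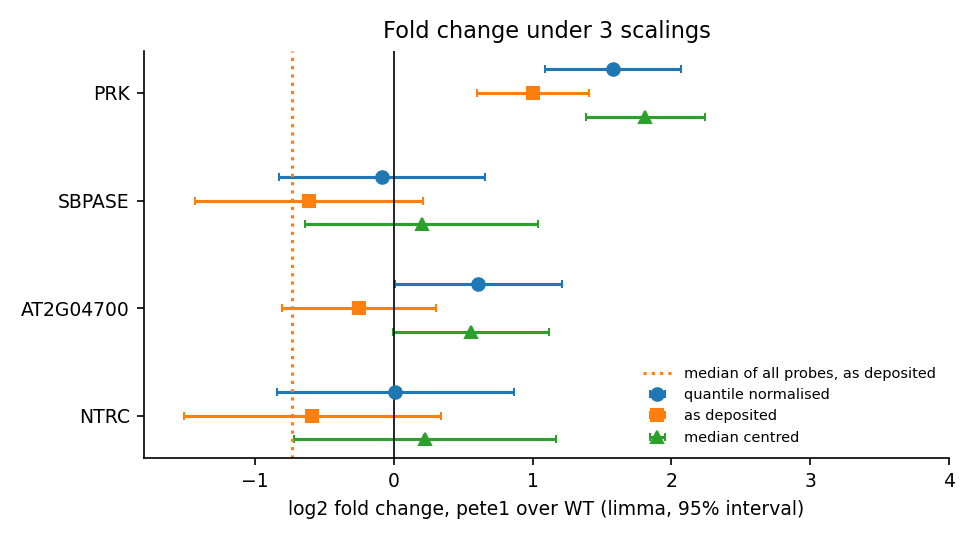
Log2 fold change, pete1 over WT, with its 95% limma interval (horizontal axis) for 4 genes under quantile normalisation, as deposited and after median centring; the dotted line is the median of all probes as deposited, -0.73. The PRK intervals lie above 0 in all 3, those of SBPASE and NTRC include 0 in all 3, and the estimate for AT2G04700 is 0.61, -0.26 and 0.56.

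Ranks within each array need no scaling and gave the same picture. Quantile normalisation rests on the same ranks, so this is no support separate from the main test. PRK was brighter than 85.3% ± 4.2 of the probes of an array in pete1 and than 51.5% ± 11.9 in WT (SD, n = 6 each). The lowest pete1 sample was at 79.4% and the highest WT sample at 65.4%, so the groups did not overlap. After quantile normalisation 6.48% of all probes had every pete1 sample above every WT sample, and 15.1% were higher in all 6 numbers. These shares were not computed for the percentiles themselves. The difference was 33.8 percentage points (exact permutation p = 0.00216, two-sided, the smallest that 6 against 6 allows; adjusted p = 0.00866 over 4 genes), and it was positive in all 6 sample numbers. Exchanging genotypes only within equal numbers gave an exact permutation p of 0.0312, the smallest that 6 pairs allow, which adjusted to 0.0625. SBPASE was brighter than 69.9% ± 16.3 of the probes in pete1 and than 72.7% ± 9.81 in WT. That difference was -2.85 percentage points (exact permutation p = 0.740, two-sided), positive in 2 of 6 sample numbers. The pete1 samples of SBPASE spread from 45.6% to 84.9%, which covered the whole WT range of 61.2% to 85.3% apart from its top.

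The samples of equal number in pete1 and WT deviated together over all probes and were compared as pairs. Samples of unequal number were not compared across genotypes. Pairing by number therefore cannot be told apart from sharing among neighbouring numbers. The exchanges within equal numbers take the 6 numbers as independent pairs, which was not tested on the differences between genotypes. Neighbouring numbers of a genotype were more alike (Spearman 0.955 to 0.980) than its other samples (0.849 to 0.901). The exact permutation p-values of these exchanges may therefore be too small. As deposited, PRK differed between the genotypes by nearly the same factor in each pair. The deposited PRK intensity in pete1 was 1.76 to 2.16 times that in the WT sample of the same number, a range of 0.30 on the log2 scale. It was above 1 in all 6 numbers, as for 3.72% of all 3439 probes. Of the 2942 probes above 0 in all samples, 0.850% had a narrower range, and the median range was 1.26. For SBPASE the same factor was 0.378 to 0.954, a range of 1.34 on the log2 scale. It was below 1 in all 6 numbers, as it was for 52.6% of all 3439 probes as deposited. After quantile normalisation SBPASE was higher in pete1 in 2 of 6 numbers and PRK in 6 of 6, against 15.1% of all probes higher in all 6. The log2 difference of PRK was then 1.35 to 1.81, and how its range compared with other probes was not computed on that scale.

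A ratio of both transcripts within an array cancels any factor that multiplies the whole array. The log2 ratio of deposited PRK to SBPASE intensity was 0.84 ± 1.07 in pete1 and -0.77 ± 0.71 in WT (SD, n = 6 each). The ratio was higher in pete1 in all 6 sample numbers, by 1.02 to 2.47 on the log2 scale and by 1.61 on average. Its exact permutation p was 0.0173 (two-sided, 924 splits), and 0.0519 once adjusted over the 6 ratios among PRK, SBPASE, AT2G04700 and NTRC. Exchanging genotypes only within equal numbers gave an exact permutation p of 0.0312, the smallest that 6 pairs allow (0.0625 adjusted over the 6 ratios). The groups overlapped, from -0.44 to 1.99 in pete1 and from -1.46 to 0.16 in WT. In either genotype samples 3, 5 and 6 had higher ratios than samples 1, 2 and 4. Without number 3, or without number 4, in both genotypes the exact permutation p was 0.0556, with differences of 1.44 and 1.61. Averaged to 3 against 3, the exact permutation p was 0.2. A larger change of PRK than of SBPASE therefore had the same direction in every number but did not pass once adjusted, and the ratio does not show that either transcript was constant.

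**Figure D4:**
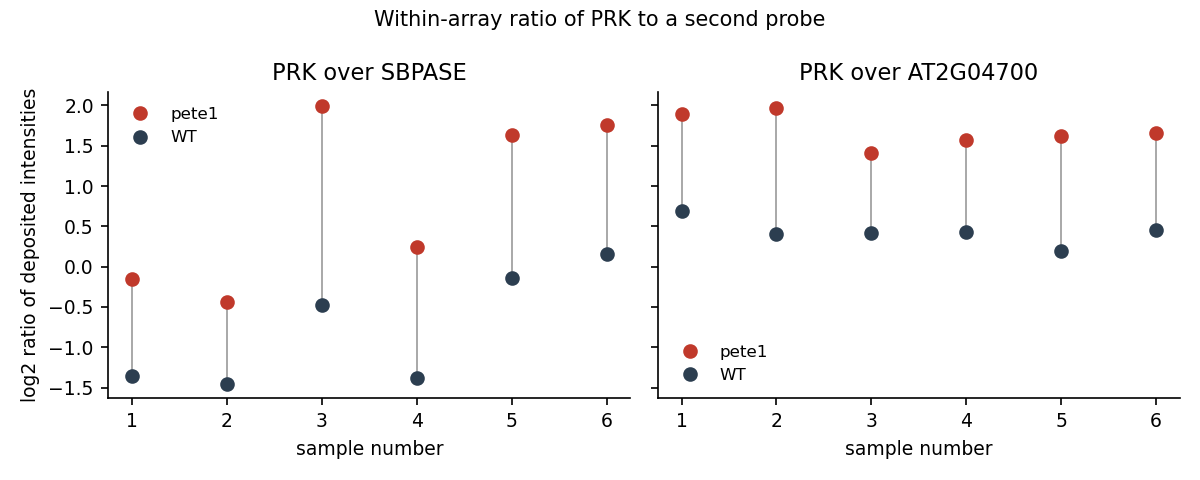
Log2 ratio of the deposited PRK intensity to that of SBPASE (left) and of AT2G04700 (right) in each array (vertical axis) by sample number, for pete1 and WT; a line joins the samples of equal number. The pete1 sample lies above the WT sample in all 6 numbers of both panels, by 1.02 to 2.47 for SBPASE and by 1.0 to 1.56 for AT2G04700.

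Averaged over neighbouring numbers, PRK and SBPASE ran in opposite orders in both genotypes. The mean deposited PRK intensity of numbers 1 and 2 was 0.849 in pete1 and 0.462 in WT. That of numbers 3 and 4 was 1.11 in pete1 and 0.522 in WT, and that of numbers 5 and 6 was 1.46 in pete1 and 0.710 in WT. PRK was lowest in numbers 1 and 2 and highest in numbers 5 and 6 whatever the genotype, an order that 5.03% of the 2942 probes above 0 in all samples had in both genotypes. The SBPASE means of numbers 1 and 2 were 1.04 in pete1 and 1.22 in WT. Numbers 3 and 4 had 0.614 in pete1 and 1.05 in WT, and numbers 5 and 6 had 0.451 in pete1 and 0.706 in WT. This is the reverse order, which 4.52% of those probes had in both genotypes. The middle place of SBPASE in numbers 3 and 4 came from averaging unlike samples. In pete1 SBPASE was 0.273 in number 3, below numbers 5 and 6 (0.477 and 0.424), and 0.956 in number 4. In WT it was 0.722 in number 3, between numbers 5 (0.752) and 6 (0.661), and 1.37 in number 4, the highest of WT. On the normalised log2 scale SBPASE in number 4 lay above its genotype mean by 0.61 in pete1 and 0.65 in WT. PRK in number 4 lay above its own by 0.034 in pete1 and 0.045 in WT. The labels do not say what the numbers stand for, and the part of growth conditions, plants or hybridisations in these orders was not tested. The Pearson correlation of the PRK and SBPASE deviations from the genotype means, on the normalised log2 scale, was -0.59 over the 12 samples (Spearman -0.50), which share arrays and, in pairs, sample numbers.

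Samples 3 and 4 of a genotype were alike in most probes, but differed in SBPASE and in a small share of other probes. Its deposited intensity in sample 4 was 3.50 times that in sample 3 in pete1 and 1.90 times in WT. The median probe moved by 0.15 on the log2 scale, in either direction, between these samples in pete1 and by 0.12 in WT, and 2.21% of the 2942 probes moved further than SBPASE in pete1 and 1.50% in WT. PRK was 1.04 times as bright in sample 4 as in sample 3 in pete1 and 1.01 times in WT. The coefficient of variation of SBPASE was 50.3% in pete1 and 31.6% in WT, and that of PRK was 24.0% in pete1 and 21.0% in WT. Without number 3 in both genotypes the SBPASE log2 fold change was 0.042 (limma adjusted p = 0.972).

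Of the genes around these enzymes, the lists of stromal redox control, photorespiration, and starch and sucrose synthesis held 17, 17 and 16 loci, of which 2, 0 and 0 had a probe of their own. The redox loci were AT2G04700, which the probe annotation and the RefSeq table give by locus alone, and NTRC (AT2G41680), an NADPH-dependent thioredoxin reductase that passes electrons to chloroplast enzymes. AT2G04700 averaged 0.362 ± 0.113 in pete1 and 0.425 ± 0.118 in WT (SD, n = 6 each), with ranges of 0.213 to 0.482 and 0.305 to 0.598. NTRC averaged 0.589 ± 0.396 in pete1 and 0.786 ± 0.287 in WT, with ranges of 0.245 to 1.21 and 0.428 to 1.19. The genotypes overlapped for both genes, and neither passed over all probes. Normalised, the log2 fold change was 0.61 ± 0.27 for AT2G04700 (limma adjusted p = 0.141) and 0.011 ± 0.39 for NTRC (limma adjusted p = 1). Once the number was fitted as a block, AT2G04700 passed (limma adjusted p = 0.0127, with 11% of all probes called higher). It did not with neighbouring numbers (1 with 2, 3 with 4, 5 with 6) as a random block (limma adjusted p = 0.296), nor in averages of these with the pair as a block (limma adjusted p = 0.261), and as deposited its log2 fold change was -0.26 (limma adjusted p = 0.410). Of the 2 Calvin cycle genes PRK rose and SBPASE did not pass, with a median log2 fold change of 0.75 for the pair, against -0.0073 for all probes.

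AT2G04700 deviated with PRK from sample to sample, and NTRC more loosely with SBPASE. Among 592 genes with a probe of their own above 0 in all samples, the 3 whose deviations from the genotype means were most like those of PRK were AT2G04700 (Pearson r = 0.96 over 12 samples), AT1G64510 (0.95) and AT4G39760 (0.94). For SBPASE they were AT5G26850 (0.77), AT4G40080 (0.71) and NTRC (0.71). The deviations of NTRC ran against those of PRK (-0.85) and of AT2G04700 (-0.85). These correlations describe values that share arrays and sample numbers, and 7.68% of 2941 probes exceeded 0.80 with PRK but 0.102% with SBPASE. The genes most like PRK and SBPASE between samples did not all share their difference between genotypes. AT4G40080 averaged 0.206 ± 0.0240 in pete1 and 0.552 ± 0.0858 in WT and fell by 0.53 on the normalised log2 scale (limma adjusted p = 0.00889), a call that was lost with the random block (0.191), in averages (0.242, and 0.289 with the pair as a block) and without numbers 3 and 4 (0.0702). AT1G64510 passed at 1.44 (log2 fold change, limma adjusted p = 0.0323, with 10.7% of all probes called higher) but stood at -0.046 as deposited, from a dim mean of 0.143 ± 0.0843 in pete1 and 0.131 ± 0.0375 in WT. Its call was also lost after median centring (0.77, limma adjusted p = 0.130) and with the random block (limma adjusted p = 0.183), among 7 alternatives, and it survived the omission of a single sample in 7 of 12 cases. AT4G39760, at 6.82 ± 2.11 in pete1 and 3.74 ± 1.32 in WT, did not pass (0.66, limma adjusted p = 0.151), though it did as deposited (0.90, limma adjusted p = 0.0250), after median centring (1.71, limma adjusted p = 0.00227) and in the fit with the number as a block (0.66, limma adjusted p = 0.0217). Those 3 fits called 3.34%, 19.3% and 11% of all probes higher, in that order. AT5G26850 did not pass (0.79, limma adjusted p = 0.149).

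**Figure D5:**
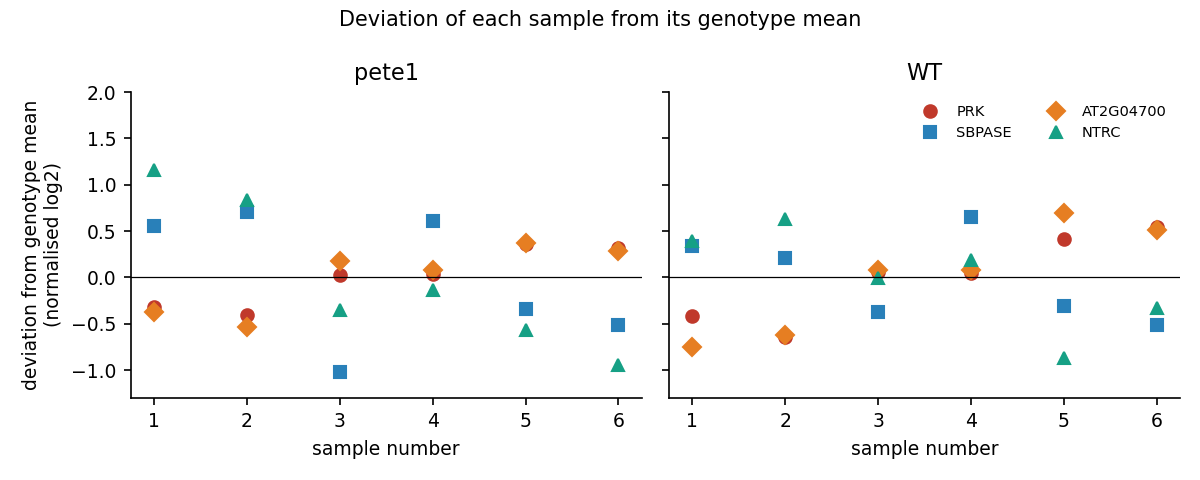
Deviation of each sample from its genotype mean on the normalised log2 scale (vertical axis) by sample number, pete1 on the left and WT on the right, for PRK, SBPASE, AT2G04700 and NTRC. PRK and AT2G04700 lie below 0 in numbers 1 and 2 and above 0 in numbers 3 to 6 of both genotypes, and SBPASE lies above 0 in numbers 1, 2 and 4 and below it in numbers 3, 5 and 6 of both.

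Of the ratios that involve PRK, that to AT2G04700 varied least between samples of a genotype. Among the 592 genes compared above, AT2G04700 was the one that deviated most like PRK in these same samples (Pearson r = 0.96). A small spread of this ratio within a genotype follows from that likeness. The log2 ratio of deposited PRK to AT2G04700 intensity was 1.69 ± 0.21 in pete1 and 0.43 ± 0.16 in WT (SD, n = 6 each), chosen after the values were seen. All pete1 samples lay above all WT samples, with a difference of 1.26 (exact permutation p = 0.00216, two-sided, the smallest possible; adjusted p = 0.0130 over the 6 ratios). The adjustment does not account for the choice of this ratio or for that likeness. How many probes would separate the genotypes as well in a ratio with PRK was not computed. Exchanges within equal numbers gave an exact permutation p of 0.0312, the least possible with 6 pairs, which adjusted to 0.0625, and in averages of 3 against 3 it was 0.1, again the smallest possible. The log2 ratio of PRK to NTRC was 1.17 ± 1.25 in pete1 and -0.42 ± 0.82 in WT, higher in pete1 in all 6 numbers (exact permutation p = 0.0281, two-sided; adjusted p = 0.0563). The ratio of SBPASE to NTRC differed by -0.025 between the genotypes (exact permutation p = 0.918, two-sided), and that of SBPASE to AT2G04700 by -0.36 (exact permutation p = 0.567, two-sided). The ratio of AT2G04700 to NTRC differed by 0.33 (exact permutation p = 0.623, two-sided).

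The call of PRK turned on what counts as a replicate. Neighbouring numbers of a genotype (1 with 2, 3 with 4, 5 with 6) were more alike in rank (Spearman 0.955 to 0.980) than other samples of a genotype (0.849 to 0.901). With these as a random block, PRK kept its call (limma adjusted p = 0.00865, with 2.76% of all probes called higher). The correlation within a block was estimated at 0.81 over all probes. Each block lies within a genotype, 3 in each, but that fit takes its degrees of freedom from the 12 samples. Its p-value may therefore be too small. Averaged to 3 against 3, it had an unadjusted limma p of 0.00524 and an adjusted p of 0.158, in a fit that called 7 of 3439 probes. The fold of the averaged intensities was nearly the same in all 3 pairs of numbers, 1.84 in 1 and 2, 2.13 in 3 and 4, and 2.05 in 5 and 6. For SBPASE the fold was 0.857, 0.587 and 0.638 in the same pairs, below 1 in each. Over all 12 samples the median probe was also lower in pete1 as deposited (log2 fold change -0.73), and its fold in each pair was not computed.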

How the data were processed

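Expression arrays measured total RNA of 6 pete1 and 6 WT samples. The authors deposited 1 linear intensity per probe and sample, none below 0. How they read, corrected and scaled it is not given in the sources used here; means near 1 were seen in the values. The number of samples limits the precision. Genes were named from probes with 1 gene in the platform annotation, through the RefSeq table of TAIR10.1 (690 of 692 matched a locus); 870 probes had several genes and 1877 none.

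The smallest positive intensity (4.74e-05) was added before log2, which was then quantile normalised, and all 3439 probes were fitted with limma 3.58.1 in R 4.3.3 (lmFit, eBayes, two-sided, Benjamini-Hochberg over all probes, threshold 0.05). Percentiles and ratios within an array were compared by exact permutation of the 12 samples. The fit was tested on simulated data with independent samples, so that test does not cover the likeness of neighbouring numbers. Deviations from the genotype mean correlated at 0.221 to 0.452 between samples of equal number in all 6 pairs. The shared numbers in the titles were therefore used as pairs, though unequal numbers were not compared across genotypes. Named genes were PRK, SBPASE, listed pathway genes with a probe of their own and the 3 genes most like each in deviations. Members, lists and tests were chosen with earlier results of these data known. Alternatives covered scaling, offset, dim probes, replicates and leaving out samples.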

Additional observations from a re-analysis of the deposited data

How the results depend on the processing

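The cause of each change below was not tested, and "added" marks a choice made with the data in view. For PRK, 3 averages of consecutive numbers kept the direction but not the call, at log2 fold changes of 1.58 (limma adjusted p = 0.158), 1.0 as deposited (0.0682) and 1.58 with the pair of numbers as a block (0.224, added), where 0 of the 2 Calvin cycle genes passed; the other 11 alternatives and all 12 fits that left out a sample (1.48 to 1.71) kept the call. The replicate block changed no call of PRK (1.58, limma adjusted p = 0.000533) or SBPASE (-0.088, 0.695), and it gave 743 probes against 746. SBPASE passed in none of its alternatives, and its estimate turned to 0.20 after median centring, 0.084 without numbers 3 and 4 (added) and 0.042 without number 3 (added), with -0.22 to 0.12 on leaving out a sample. The number of probes called was 1861 as deposited, 163 with the random block, 7 in averages (563 at an unadjusted limma p under 0.05), 363 in averages as deposited and 0 in averages with the pair as a block (added; 591 likewise), and 550 to 722 on leaving out a sample. In averages of 3 against 3 the exact permutation p of the PRK percentile (33.8 points) was 0.1, the smallest possible, and that of the PRK to SBPASE ratio (1.61) was 0.2; without number 3 or number 4 (both added) it was 0.0556, at 1.44 and 1.61. Leaving out a sample gave 30.5 to 36.6 points for the PRK percentile, -5.85 to 2.01 for that of SBPASE (0.43 without number 3, added) and 1.38 to 1.87 for the ratio, whose exact permutation p stayed between 0.0108 and 0.0390. As deposited, singly and in averages, the log2 fold changes of AT2G04700 (-0.26), NTRC (-0.59), AT1G64510 (-0.046) and AT5G26850 (-0.13) turned in sign, and that of NTRC was -0.23 without numbers 1 and 2 (added). Leaving out a sample gave -0.22 to 0.20 for NTRC, -5.92 to 3.48 points for its percentile and -0.19 to 0.12 for the SBPASE to NTRC ratio.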

Other observations

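Dixon's test for a lone sample was run in 36 sets of 6 values, over the 8 named genes, 4 percentiles and 6 ratios, and picked out 0. The difference in SBPASE between samples 3 and 4 was shared by few probes: 8 of 2942, SBPASE among them, were brighter in sample 4 by at least as much as SBPASE in both genotypes. NTRC, whose deviations were otherwise among those most like SBPASE, was 1.20 times as bright in sample 4 as in sample 3 in pete1 and 1.14 times in WT.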
